A study of Mus musculus with 10 samples.

Results

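The genes described are those of the RIKEN 4930 series, that is, genes whose symbol starts with 4930 and ends in Rik. They were taken from the array features that carried exactly 1 gene symbol, and a gene with several features was represented by the one with the highest mean over all 10 arrays. This gave 106 genes from 108 features, out of 19661 genes on the array. The rule uses symbols and mean levels over all arrays, and not the difference between genotypes. Whole testis RNA of 5 wild-type (WT) and 5 Crem-/- (KO) mice had been hybridised to Affymetrix Mouse Gene ST arrays, with 1 animal on each array. All animals, of both genotypes, were untreated, 8 weeks old and of mixed background (129Pas x C57Bl/J), and were killed when the lights came on. The KO animals carried both Crem alleles in disrupted form, and their spermatogenesis is known to stop at the round spermatid stage, so a KO testis differs from a WT testis in its cells as well as in the factor itself. The labels give 4 batches, of which only batch 2 (3 WT arrays and 1 KO array) and batch 4 (1 WT array and 3 KO arrays) held both genotypes. Replicates are numbered in the order of deposition and the numbers pair no animals.

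A symbol of this kind is a clone number. The RIKEN mouse encyclopedia project sequenced full-length complementary DNA from many tissues, and a gene that had no other name received the number of its clone, in which the first digits stand for the library and Rik for the institute. The testis was one of the richest sources of such clones, because meiotic and postmeiotic germ cells transcribe an unusually large part of the genome, including many long non-coding RNAs and small genes that are silent elsewhere. CREM is a transcription factor that responds to cAMP. Its activator form appears in spermatids and binds the cAMP response element (CRE) of genes that are transcribed before the nucleus condenses.

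According to the mouse RefSeq table (assembly GRCm38.p6), 52 of the 106 genes were protein coding, 44 were long non-coding RNAs (lncRNAs), 4 were transcribed pseudogenes and 2 were other RNAs, while 4 symbols are not in that table. Of the 106 genes, 50 overlap another annotated gene, and whether signal of the other transcript is part of their value was not tested. For most of these genes no function is known to a degree that could be stated here, and they are described by their class, position and level. Those with a further name in the table include 4930447C04Rik (Six6os1), a protein of the synaptonemal complex that pairs chromosomes in meiosis, and 4930432K21Rik (Brme1), a protein of meiotic recombination.

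The windows around the start sites of 3 genes that fell in KO testis are shown because the element that CREM binds begins before the start site. In a fall of this size not shown, that of 4930563M21Rik, a core element lies after the start site. Core elements also lie before the start site of genes lower by less than 1, among them 4930426L09Rik and 4930470P17Rik. The same holds for genes that were higher, among them 4930520O04Rik and 4930447C04Rik, and for uncalled genes such as 4930402H24Rik. Each window shown is the RefSeq promoter window of assembly GRCm38.p6, with 250 bases before and 50 after the annotated start. The letters are written 5′ to 3′ on the strand of the gene. Capitals mark the full palindromic element TGACGTCA in the windows of 4930412O13Rik (chr2:9880996-9881295, plus strand) and 4930568D16Rik (chr2:35367680-35367979, minus strand), and the core element TGACG, here in its reverse form CGTCA, in that of 4930523C07Rik (chr1:160044130-160044429, plus strand). The first base in capitals lies 51, 4 and 19 bases before the start site, respectively. The full element of 4930568D16Rik therefore runs across the annotated start.
4930412O13Rik: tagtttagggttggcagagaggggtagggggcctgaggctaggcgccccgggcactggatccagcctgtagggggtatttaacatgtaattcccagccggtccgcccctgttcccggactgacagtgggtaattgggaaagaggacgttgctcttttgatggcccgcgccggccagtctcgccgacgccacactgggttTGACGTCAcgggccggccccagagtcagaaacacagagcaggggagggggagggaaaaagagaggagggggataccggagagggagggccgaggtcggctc
4930568D16Rik: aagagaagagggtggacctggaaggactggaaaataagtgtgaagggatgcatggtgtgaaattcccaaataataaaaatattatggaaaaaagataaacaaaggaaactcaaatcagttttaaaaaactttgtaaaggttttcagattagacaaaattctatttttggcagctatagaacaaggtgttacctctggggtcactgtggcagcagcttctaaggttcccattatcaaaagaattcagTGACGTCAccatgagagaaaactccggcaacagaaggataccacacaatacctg
4930523C07Rik: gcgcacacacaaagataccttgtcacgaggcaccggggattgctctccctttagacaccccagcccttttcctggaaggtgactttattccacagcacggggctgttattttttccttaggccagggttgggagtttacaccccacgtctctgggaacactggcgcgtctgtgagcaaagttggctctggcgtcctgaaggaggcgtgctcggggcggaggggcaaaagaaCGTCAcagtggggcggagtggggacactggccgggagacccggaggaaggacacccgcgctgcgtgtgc

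A promoter window was found for 81 of the 106 genes. Letters were searched on both strands, and each full element also counts as a core element. The full element was found for 2 of the 23 genes with a window among the falls of at least 1 in log2 (8.7%), for none of the 5 rises of at least 1, and for none of the 53 other genes with a window. A gene counted where any of its windows held the element. Over all array genes with a window it was found in 2.72%, and over the array genes lower by that much in 4.09%. The core element was found for 4 of the 23 falling genes (17.4%) and for 15 of the 53 others (28.3%), against 27.9% of all array genes, 23.0% of all genes in the table and 20.8% of its windows. The share with the core element was thus not higher at the falling genes than at the rest of the series, and the full element rests on 2 genes.

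In WT testis the log2 level of the 106 genes ranged from 4.82 for 4930503E24Rik, a transcribed pseudogene, to 12.08 for the protein-coding 4930505A04Rik, with a median of 7.86 and quartiles of 7.01 and 9.15. Over all features of the array the quartiles were 5.97, 7.13 and 8.75. These levels order signals and not transcript amounts, since probes differ in brightness. Of the genes, 11 lay below the first quartile of all features, 18 between it and the median, 40 between the median and the upper quartile, and 37 above that. Replicates were close, with a median SD over the genes of 0.18 in WT and 0.16 in KO (n = 5 each).

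The 5 highest signals in WT belonged to 4930505A04Rik, 4930544G11Rik, 4930471G03Rik, 4930453N24Rik and 4930550C14Rik, and these genes differed in their response. 4930505A04Rik read 12.15, 12.18, 12.01, 12.13 and 11.91 in WT and 10.93, 11.26, 11.06, 11.11 and 10.76 in KO. The groups did not overlap, and the level fell by 1.05 ± 0.09 (SE) on the log2 scale (limma, adjusted p = 5.4e-07). 4930544G11Rik read 11.26 to 11.57 in WT and 11.69 to 11.99 in KO and was higher by 0.36 ± 0.08 (adjusted p = 0.00197). 4930453N24Rik (WT 11.02 ± 0.16, KO 10.96 ± 0.18, SD) and 4930550C14Rik (WT 10.85 ± 0.10, KO 10.86 ± 0.19, SD) did not pass the test (adjusted p = 0.70 and 0.98). The lncRNA 4930471G03Rik was among the largest falls of the series and is described with them.

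Between KO and WT, 42 of the 106 genes were lower (39.6%, against 13.2% of all genes on the array), 25 were higher (23.6%, against 31.1%) and 39 were not called. Of these, 28 were lower by at least 1 in log2 (26.4%, against 4.36% of all genes) and 5 were higher by at least 1 (4.72%, against 1.37%). The median change of all 106 genes was nevertheless −0.04, close to the 0.07 of all genes, because 58 of the genes moved by less than 0.5 in either direction. The distribution had a long lower tail, with a 5th percentile of −3.27 and a 95th of 0.94, where all genes had −0.84 and 0.58. The median change was −1.55 among the lower genes and 0.50 among the higher ones. A fall of at least 2 was seen in 13 genes (12.3%, against 2.33% of all genes). The changes of the 106 genes ran from −4.83 to 1.76, and those of all genes from −6.03 to 4.85.

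**Figure D1:**
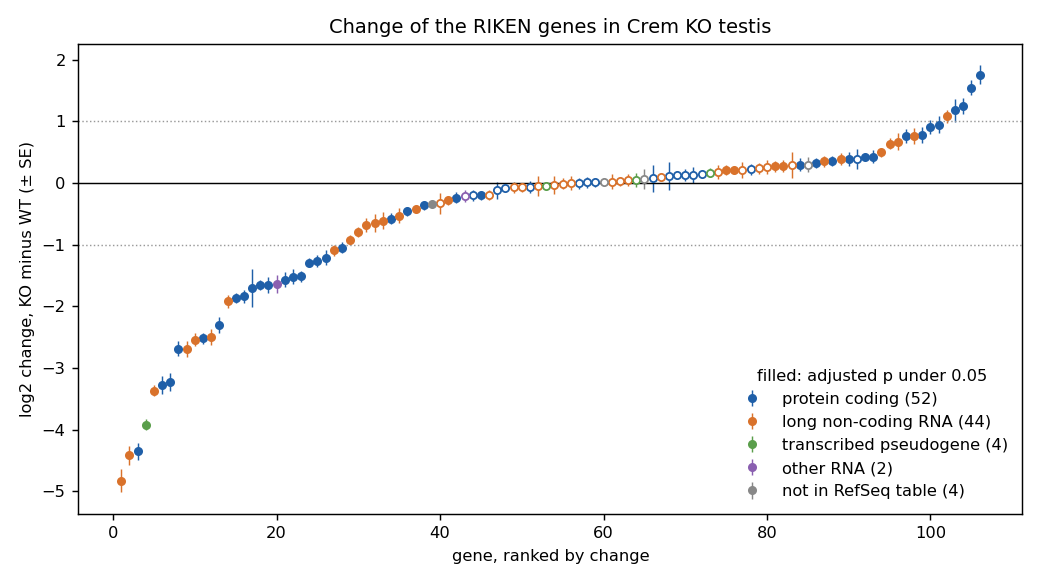
Change in KO testis (log2, KO minus WT, with the SE of the limma fit) of each of the 106 genes, ranked, coloured by RefSeq class; filled points passed an adjusted p of 0.05 and dotted lines mark a change of 1. The left tail reaches −4.83 and holds 28 genes below −1, while 5 genes lie above 1 and most of the rest lie near 0.

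The groups did not overlap for 38 of the lower genes (35.8% of the members, against 10.6% of all genes lower without overlap) and for 17 of the higher ones (16.0%, against 21.7%). Within batch 2 alone 36 genes were lower and 11 higher, where 7.89% and 11.2% of all genes were called. Within batch 4 alone 34 were lower and 13 higher, against 8.06% and 9.67% of all genes. With batch as a fixed block the counts were 40 and 20, against 12.0% and 26.3%. The share of lower genes was thus above that of all genes in each fit. The share of higher genes was above that of all genes within batch 4 alone and below it in the other fits. The within-batch fits rest on 4 arrays each, with a lone array in 1 group that is assumed to vary like the others. The 28 falls of at least 1 had a median change of −1.84 in batch 2, −1.98 in batch 4 and −1.89 under the block. Their direction there was fixed beforehand, since no groups of these genes overlapped.

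The falls came together with a loss of late germ cell markers. All 8 markers of elongating spermatids were lower, with a mean level of 13.08 to 13.35 in the WT arrays and 7.61 to 10.02 in the KO arrays. Of 5 round spermatid markers 4 were lower, 2 of them by at least 1, with a median change of −0.68 over the list. Over all genes of the array 13.2% were lower and 31.1% higher, and the marker counts are to be read beside these shares. Of 7 spermatocyte markers 5 were higher, with a median change of 0.24 over the list, and 4 of 8 Sertoli cell, 3 of 4 Leydig cell, 5 of 5 macrophage and 2 of 3 endothelial markers were higher. Of the peritubular markers 1 of 4 was higher (median 0.15), and of the 6 spermatogonia markers 2 were higher and 1 was lower (median 0.09). None of the 4 epididymis markers was called, and their WT mean level was 5.22 to 5.65, below the lower quartile of all features. The part of this shift in the results was not tested, and in whole testis RNA fewer cells of a type and less RNA per cell cannot be told apart. Crem itself read 10.95 ± 0.06 in WT and 9.24 ± 0.15 in KO (SD, n = 5 each), a change of −1.71 ± 0.07 (SE, adjusted p = 3.0e-10). The array medians lay between 7.11 and 7.15.

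The largest fall was that of 4930584F24Rik, a lncRNA on chromosome 5. It read 9.45, 9.82, 9.53, 9.63 and 9.76 in the WT arrays and 4.58, 5.46, 5.24, 4.40 and 4.37 in the KO arrays. Every KO array lay far below every WT array, with KO replicates 2 and 3 the highest of their group. The level fell by 4.83 ± 0.19 (SE) on the log2 scale, 28.4-fold (limma, adjusted p = 1.2e-10). 4930471G03Rik, a lncRNA on chromosome 18, read 11.36, 11.27, 11.27, 11.42 and 11.76 in WT and 6.81, 7.48, 7.38, 6.67 and 6.65 in KO. The groups were again far apart, and KO replicates 2 and 3 were again the highest of the KO arrays. It changed by −4.42 ± 0.16 (21.4-fold, adjusted p = 6.5e-11).

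The protein-coding 4930407I10Rik on chromosome 15 read 10.97, 10.71, 10.77, 10.85 and 10.88 in WT and 6.35, 6.78, 6.98, 6.24 and 6.09 in KO. KO replicates 3 and 2 were again the highest of their group, and the gene fell by 4.35 ± 0.14 (20.4-fold, adjusted p = 2.4e-11). A second feature of this gene fell by 4.01 ± 0.14 (adjusted p = 3.1e-11), so both of its features showed the loss. 4930448K20Rik, a transcribed pseudogene on chromosome 4, read 9.81, 9.81, 9.58, 10.02 and 10.04 in WT and 6.01, 5.89, 6.11, 5.87 and 5.77 in KO, and its KO arrays were close to each other (SD 0.13). The change was −3.92 ± 0.09 (15.2-fold, adjusted p = 2.6e-12), the smallest p of all members. The other 3 transcribed pseudogenes had WT levels of 4.82 to 5.54 and were not called.

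4930412O13Rik, the lncRNA on chromosome 2 whose window with the full element is shown above, read 9.53, 9.66, 9.59, 9.75 and 9.86 in WT and 6.11, 6.60, 6.25, 6.23 and 6.32 in KO. The groups did not overlap, and the level fell by 3.37 ± 0.09 (10.4-fold, adjusted p = 5.1e-12). A second feature of the same gene was much dimmer, at 6.25 in WT, and fell by only 0.58 ± 0.08 (adjusted p = 9.0e-05), so its features disagreed in size but not in direction. 4930568D16Rik, the other gene with a full element (also named Ggta1l1), read 7.66, 8.04, 7.49, 7.69 and 7.59 in WT and between 5.80 and 6.40 in the KO arrays. The groups did not overlap here either, and the level fell by 1.57 ± 0.12 (adjusted p = 1.3e-07).

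4930513O06Rik was the only X-linked gene among the 28 falls. It read 6.64, 7.63, 7.30, 7.31 and 6.85 in WT and 3.86, 4.10, 3.81, 3.75 and 3.80 in KO, and fell by 3.28 ± 0.15 (9.72-fold, adjusted p = 7.7e-10). Its WT arrays were spread more widely (SD 0.40) than its KO arrays (SD 0.14), which lay near the bottom of the scale. 4930522H14Rik, a coding gene on chromosome 4, read 9.79, 10.14, 9.85, 9.80 and 9.58 in WT and 6.60, 6.96, 6.81, 6.49 and 6.16 in KO. The groups were more than 2 units apart at every array, and the level fell by 3.23 ± 0.14 (9.38-fold, adjusted p = 2.7e-10).

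The other 5 of the 12 largest falls lay between −2.69 and −2.50 on the log2 scale. They were the coding genes 4930402F06Rik (WT 6.73, KO 4.04) and 4930564C03Rik (WT 9.17, KO 6.64) and the lncRNAs 4930562F07Rik (WT 8.25, KO 5.56), 4930533K18Rik (WT 7.93, KO 5.39) and 4930548G14Rik (WT 6.70, KO 4.20). Their SEs were 0.09 to 0.13, their adjusted p values 5.3e-11 to 3.2e-09, and no groups overlapped. Within batch 2 the changes of the 12 genes ran from −4.36 to −2.43, and within batch 4 from −5.31 to −2.14. In 11 of the 28 genes lower by at least 1 the KO mean was under 5.94, the lower quartile of KO means over all features.

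**Figure D2:**
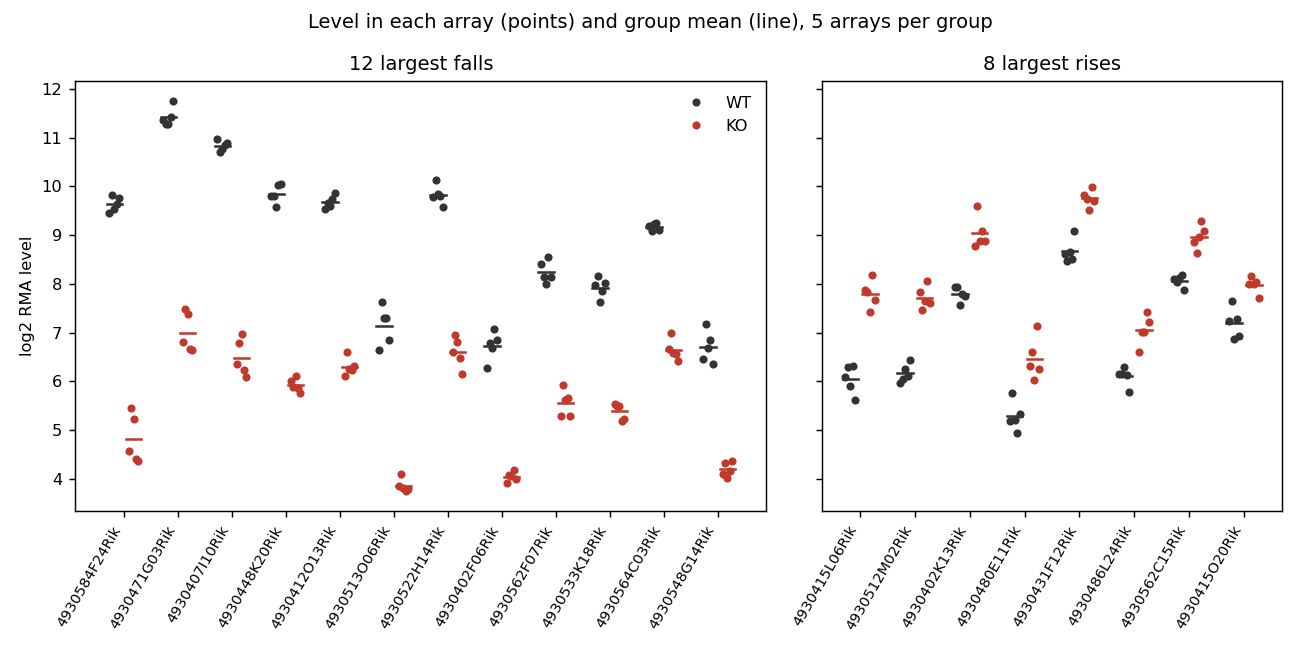
Log2 RMA level in each of the 5 WT (black) and 5 KO (red) arrays, with group means as lines, for the 12 genes with the largest fall (left) and the 8 with the largest rise (right). No group overlaps its partner, and the differences on the left (−4.83 to −2.50) are larger in size than those on the right (0.78 to 1.76).

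4930562F07Rik overlaps the coding gene 4930523C07Rik on chromosome 1, the only neighbouring members whose annotations overlap. 4930523C07Rik, whose window with the core element is shown above, read 8.40, 8.82, 8.67, 8.55 and 8.67 in WT and 6.65, 6.85, 6.90, 6.68 and 6.71 in KO. It fell by 1.86 ± 0.08 (adjusted p = 3.9e-10), where the lncRNA fell by 2.69 ± 0.13. The coding gene lies on the plus strand and the lncRNA on the minus strand. Whether either transcript adds to the signal of the other was not tested. The other falls of at least 1 ran from −2.30 for the coding gene 4930548H24Rik to −1.05 for 4930505A04Rik. Among them were all 4 members on chromosome 7, namely the lncRNA 4930583K01Rik (−1.92), the coding genes 4930451I11Rik (−1.66) and 4930571K23Rik (−1.52), and the RNA 4930432E11Rik (−1.64). Of the 5 members on chromosome 14 all were lower, and 3 of them by at least 1. These chromosomes were picked after their values were seen, from counts of 2 to 9 members on each placed chromosome. On the whole array 13.2% of genes were lower and 4.36% were lower by at least 1. Shares for all genes of these chromosomes are not given here.

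4930563M21Rik, a coding gene on chromosome 9, varied most between animals of the same genotype. It read 8.92, 9.51, 9.55, 8.42 and 8.71 in WT and 8.05, 6.51, 7.83, 6.55 and 7.65 in KO, with an SD of 0.50 and 0.73. KO replicates 2 and 4 were lower than the other KO arrays by more than 1 unit. The groups did not overlap, and the level fell by 1.70 ± 0.31 (adjusted p = 6.9e-04). It was named after its values were seen, for its spread.

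The KO arrays were also compared with each other. Over the 28 genes the median signal was 25.9%, 25.6%, 27.1%, 20.9% and 25.3% of the WT mean in KO replicates 1 to 5, and their mean level was 6.55, 6.73, 6.61, 6.42 and 6.40, against 8.74 to 9.0 in the WT arrays. These means spread over a range about as wide in KO as in WT, and the medians order the KO arrays differently from the means. KO replicate 2, the lone array of batch 1, was the highest KO array for 16 of the 28 genes and for 7 of the 12 largest falls. The mean level of the elongating spermatid markers was 8.94, 9.98, 10.02, 7.97 and 7.61 in the same arrays. By mean level KO replicates 2 and 3 were thus the highest in both sets of genes and replicates 4 and 5 the lowest, and whether these differences exceed the usual spread between arrays was not tested. Without KO replicates 2 and 3, 41 genes were lower, 28 of them by at least 1.

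**Figure D3:**
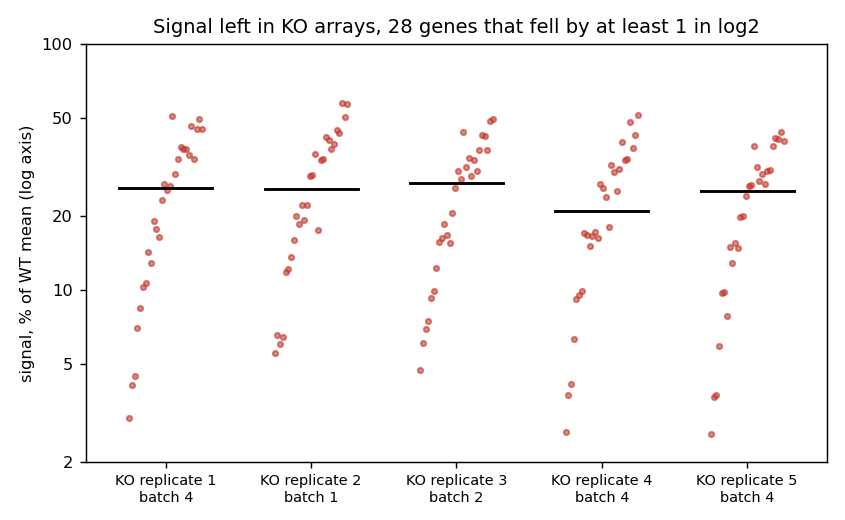
Signal of each of the 28 genes with a log2 fall of 1 or more, in percent of its WT mean (log axis), in the 5 KO arrays with their batch; lines mark the median of the array. The medians lie between 20.9% and 27.1%, and the lowest points of replicates 2 and 3 lie above those of replicates 1, 4 and 5.

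The 25 higher genes moved much less. The largest rise was that of 4930415L06Rik on the X chromosome (also named Ppp4r3c, a relative of a regulatory subunit of protein phosphatase 4). It read 6.10, 6.29, 5.91, 6.31 and 5.61 in WT and 7.87, 7.84, 7.43, 8.19 and 7.68 in KO. The groups did not overlap, and the level rose by 1.76 ± 0.15 (3.38-fold, limma, adjusted p = 5.0e-07). The coding gene 4930512M02Rik on chromosome 11 read 5.97, 6.05, 6.26, 6.12 and 6.45 in WT and 7.83, 7.46, 7.65, 8.06 and 7.60 in KO. Its groups lay about 1 unit apart at their closest, and the rise was 1.55 ± 0.12 (2.93-fold, adjusted p = 1.2e-07).

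A pair of other X-linked coding genes followed. 4930402K13Rik read 7.93, 7.94, 7.56, 7.79 and 7.76 in WT and 8.78, 9.59, 8.89, 9.09 and 8.89 in KO, a rise of 1.25 ± 0.13 (adjusted p = 5.7e-06) in which KO replicate 2 was the highest array. 4930480E11Rik read 5.18, 5.76, 5.20, 4.95 and 5.34 in WT and 6.31, 6.61, 6.04, 7.14 and 6.25 in KO, a rise of 1.18 ± 0.19 (adjusted p = 2.1e-04) from a level near the bottom of the scale. Within batch 2 alone that gene did not pass the test (0.66, adjusted p = 0.101). The only lncRNA among the 5 rises was 4930431F12Rik on chromosome 5, which read 8.61, 8.48, 8.66, 8.52 and 9.08 in WT and 9.82, 9.75, 9.51, 9.99 and 9.71 in KO. Its groups did not overlap, although WT replicate 5 stood above the other WT arrays, and the rise was 1.08 ± 0.11 (adjusted p = 4.3e-06). The next 3 rises, all of coding genes, were those of 4930486L24Rik (0.95 ± 0.13), 4930562C15Rik (0.91 ± 0.11) and 4930415O20Rik (0.78 ± 0.13), with adjusted p values of 7.1e-05, 1.3e-05 and 3.7e-04.

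Of the 8 X-linked members, 4 were higher, 3 of them by at least 1, and 1 was lower. On the array as a whole, 40.5% of 709 X-linked genes were higher and 3.67% by at least 1, against 30.8% and 1.29% of genes on the other placed chromosomes. The X-linked members are too few to set their share against that of the array. The remaining X-linked genes were 4930519F16Rik, which rose by 0.39 ± 0.11 (adjusted p = 0.0102), and 4930595M18Rik (0.39 ± 0.17), 4930550L24Rik (0.22 ± 0.09) and 4930503H13Rik (0.17 ± 0.07), which did not pass the test.

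By class, 23 of the 52 coding genes were lower, 18 of them by at least 1 (34.6%), and 14 were higher, 4 of them by at least 1. Of the 44 lncRNAs 16 were lower, 8 of them by at least 1 (18.2%), and 11 were higher, 1 of them by at least 1. The shares of all array genes were 13.2% lower (4.36% by at least 1) and 31.1% higher (1.37% by at least 1). The classes also differed in signal, with a median WT level of 8.37 for the coding genes and 7.58 for the lncRNAs, and the difference between their shares was not tested. The largest falls of both classes were of similar size, −4.35 for a coding gene and −4.83 for a lncRNA.

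Falls were found mostly among the genes with a high signal in WT. When genes were classed by the quartiles of all features, none of the 11 in the lowest class fell by at least 1, compared with 4 of 18 in the next (22.2%), 9 of 40 in the third (22.5%) and 15 of 37 in the highest (40.5%). Over all genes of the array the shares in the same classes were 0.328%, 0.857%, 3.47% and 10.9%. The RIKEN genes thus held a larger share of falls than all genes in each class but the lowest. Rises of at least 1 started from WT levels between 5.29 and 8.67 and falls from levels between 6.70 and 12.08. Since the WT level is part of the change, no relation between level and change was tested.

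**Figure D4:**
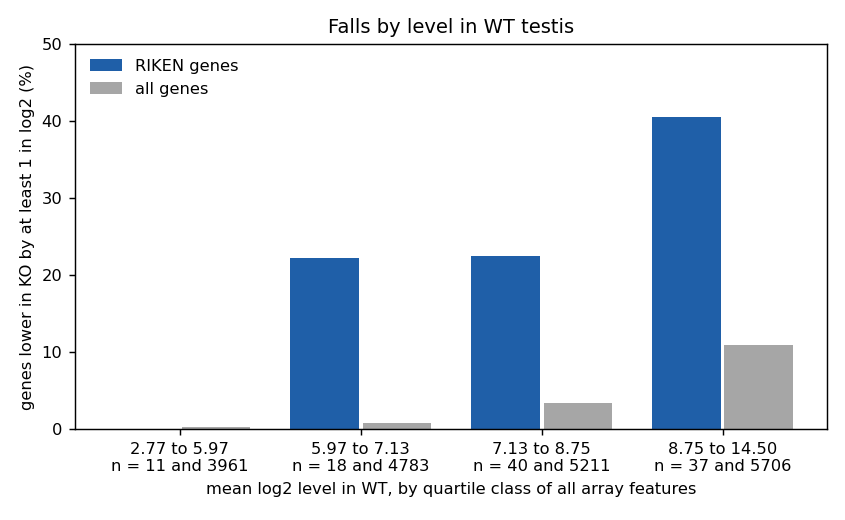
Share of genes that were lower in KO by at least 1 in log2 (%), by quartile class of the WT level over all array features, for the 106 RIKEN genes (blue) and all genes of the array (grey), with the number of genes in each. The blue bars read 0, 22.2, 22.5 and 40.5%, and the grey bars 0.328 to 10.9%.

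Of the 39 genes that were not called, several kept a high signal. The smallest changes among the genes above the upper quartile of WT levels were those of 4930550C14Rik (0.00 ± 0.09), 4930453N24Rik (−0.06 ± 0.10), the lncRNA 4930442E04Rik (−0.07 ± 0.09) and the coding gene 4930402H24Rik (−0.08 ± 0.05). 4930550C14Rik read 10.85, 10.90, 10.68, 10.93 and 10.90 in WT and 10.79, 11.05, 10.64, 11.06 and 10.75 in KO, and the groups overlapped. 4930402H24Rik read 9.92, 9.94, 9.97, 9.92 and 9.92 in WT and 9.84, 9.84, 9.85, 9.86 and 9.86 in KO. Its groups did not overlap, yet it did not pass the test (adjusted p = 0.194), since the fit sets a gene with an SD of 0.02 and 0.01 against the spread of all features. Of the members with meiotic proteins named above, 4930447C04Rik was higher by 0.33 ± 0.08 (8.69 to 9.11 in WT, 9.16 to 9.38 in KO, adjusted p = 0.00478), and 4930432K21Rik read 9.19 ± 0.21 in WT and 9.08 ± 0.31 in KO (SD, adjusted p = 0.56). Neither was among the 28 falls.

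Other RIKEN-named genes were set beside the series. Of the 627 other genes of this kind 130 were lower (20.7%), 70 of them by at least 1 (11.2%), and 116 were higher (18.5%), 5 of them by at least 1 (0.797%). The 1700 series, the only other RIKEN library with at least 50 genes here, held 127 genes, of which 60 were lower (47.2%), 42 of them by at least 1 (33.1%), and 27 were higher (21.3%), 1 of them by at least 1. Its median change was −0.19, against −0.04 for the 4930 series. Among 73 genes of other libraries whose number begins with the same 2 digits, a list formed after results were seen, 28 were lower (38.4%), 18 of them by at least 1 (24.7%), and 16 were higher (21.9%), 3 of them by at least 1 (4.11%). The 627 genes contain both of these lists. Without them 427 remained, of which 42 were lower (9.84%), 10 of them by at least 1 (2.34%), and 73 were higher (17.1%), 1 of them by at least 1. The share of lower genes among these remaining RIKEN genes was below the 13.2% of all genes, so the 20.7% rested on the other lists. The 4930 series lay close to the genes sharing its first 2 digits and below the 1700 series in its share of lower genes, and none of these differences was tested, since genes are not replicates. The lists also differed in signal. The median WT level was 7.86 in the 4930 series and 9.89 in the 1700 series. It was 8.04 in the genes sharing the first 2 digits and 6.67 in the remaining RIKEN genes. The part of these levels in the shares was not tested.

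**Figure D5:**
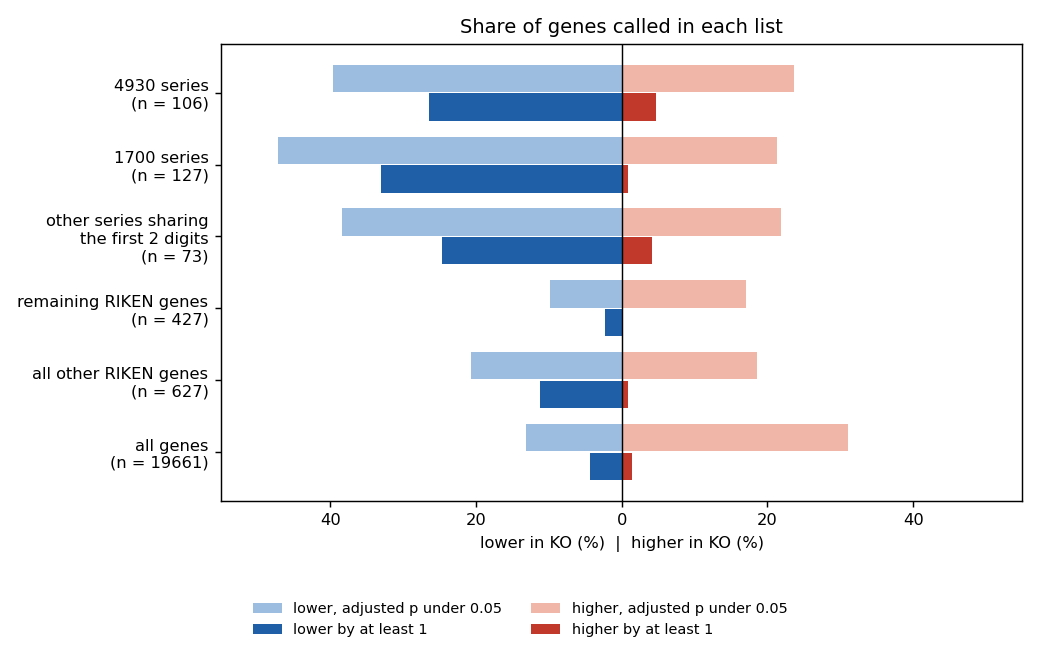
Share of genes lower (left) and higher (right) in KO testis, in percent, for the 4930 series, 2 other groups of RIKEN genes, the RIKEN genes outside these groups, all other RIKEN genes together and all genes; light bars count genes with an adjusted p under 0.05 and dark bars those that also changed by at least 1 in log2. The 4930 series reaches 39.6% lower and 23.6% higher, where all genes reach 13.2% and 31.1%.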

How the data were processed

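RNA of 10 testes (5 WT and 5 KO) was measured on arrays. The deposited values are log2 levels that the authors computed by RMA with the Bioconductor package XPS (core set of transcripts, antigenomic background, quantile normalisation). The probe annotation build is not given in the sources used here. Of 35557 features, 9868 were empty in every array, among them 1 feature of a 4930 gene, and 25689 were used. Symbols came from the platform annotation in GEO. Another 3 features carried a 4930 symbol beside others and were left out. The comparison of KO and WT used limma 3.58.1 under R 4.3.3 (two-sided, lmFit and eBayes without covariate), with Benjamini-Hochberg adjustment across all features and a threshold of 0.05. Changes are KO minus WT with the SE of the fit. The number of arrays limits the precision (median SE of the 106 genes 0.102). The genes named were the 12 largest falls and 8 largest rises that were called and whose groups stood apart, the 5 highest in WT, and the 4 smallest changes above the 75th percentile of WT levels. Further genes were named where stated, for their spread, position, promoter, class or second name. The members and lists were chosen with earlier results of these data known.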

Additional observations from a re-analysis of the deposited data

Results flagged for a closer look

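Of 54 groups of 5 arrays looked at for the named genes, 1 held an array that stood apart from the others by Dixon's criterion. KO replicate 4 read 11.27 for 4930453N24Rik, where the other KO arrays read 10.83 to 10.96, and the gap was 0.723 of the range of the group, against a critical value of 0.71. Chance alone gives such an array in 5% of groups.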

How the results depend on the processing

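The counts were recomputed under 24 alternatives, among them array centring, batch as a block, batches alone, another choice of features and leaving out arrays. The number of lower genes stayed between 34 and 42, and of those lower by at least 1 between 25 and 28. Leaving out 1 array at a time gave 40 to 42 lower, 21 to 25 higher, 27 to 28 lower by at least 1, 5 to 6 higher by at least 1, and a median of −0.06 to −0.01. The count of higher genes was the least stable. It fell to 11 in batch 2 alone and to 13 in batch 4 alone, where 4 arrays enter the fit, and reached 30 with arrays centred on their median. In batch 2 alone 3 genes were higher by at least 1 and the median change was −0.16. In batch 4 alone 7 were higher by at least 1. Of 568 values of single named genes under the alternatives none changed sign while called, and 4 no longer passed the test: 4930480E11Rik (0.66), 4930415O20Rik (0.73) and 4930544G11Rik (0.32) in batch 2 alone, and the last (0.35) in batch 4 alone. No paired analysis was possible because the labels give no replicate numbers that pair animals. The number of arrays limits what can be seen, and low signals limit the size of a fall.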

Other observations

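A pair of uncalled members on chromosome 3, picked after their values were seen, split by array and not by genotype. Their promoter windows lie near each other on the plus strand, at chr3:79628829-79629128 for 4930579G24Rik and chr3:79567942-79568241 for 4930589L23Rik. The coding gene 4930579G24Rik read 9.83, 9.85, 9.80, 9.63 and 9.12 in WT and 10.19, 9.46, 8.94, 10.09 and 9.97 in KO. The lncRNA 4930589L23Rik read 7.82, 7.81, 7.79, 7.63 and 6.87 in WT and 8.10, 7.92, 7.18, 8.21 and 7.95 in KO. In both genes WT replicate 5 and KO replicate 3 were the lowest arrays. The difference between KO and WT was therefore −0.89 and −0.62 within batch 2 and 0.97 and 1.22 within batch 4, and 0.08 ± 0.22 and 0.29 ± 0.21 (SE) over all arrays (limma, adjusted p = 0.801 and 0.295). The 2 arrays come from different batches and genotypes, and the cause was not tested.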
